A study of Mus musculus and Homo sapiens with 12 samples.

Results

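Methionine is carried by 2 kinds of tRNA with the same anticodon, CAT: the initiator, tRNA-iMet-CAT, and the elongator, tRNA-Met-CAT. Both were followed here in a genome-wide tRNA-charging assay (tRNA Charge-Seq). Every deposited gene line named for either tRNA was taken and the reads were summed by kind, which gave 18 of the 484 tRNA gene lines of the series. In mouse embryonic fibroblasts (MEF) there were 3 initiator and 6 elongator lines among 224, and in human NTERT cells, an immortalized keratinocyte line, 2 initiator and 7 elongator lines among 260. The study treated MEF cells with 100 nM halofuginone (HF), a drug that blocks prolyl-tRNA synthetase, for 6 h per the labels, in DMEM with dialyzed serum, and compared them with untreated cells (NT) in the same medium without HF. NTERT cells received 400 J/m2 of UV-B and 3 h of recovery, or no irradiation (NT). Each of the 4 groups held 3 libraries, 12 in all, which the study describes as biological replicates for the MEF assay. The labels do not say whether they were separate cultures, and the p-values below measure the spread between these libraries. Only tRNAs were read, so the labelled cell types could not be checked against markers, and cell type, species, tRNA reference and library preparation cannot be told apart.

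The initiator and the elongator are charged by the same enzyme, methionyl-tRNA synthetase. The initiator is then carried by eIF2 with GTP to the small ribosomal subunit and reads only the start codon, whereas the elongator is carried by eEF1A and reads AUG codons within the coding sequence. Phosphorylation of eIF2, the central step of the integrated stress response that GCN2 sets off when uncharged tRNA accumulates, lowers the delivery of the charged initiator.

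The human sequences are shown because they let the features by which initiator and elongator are told apart be read directly. A search of hg38 for tRNA-shaped sequences with this anticodon found 9 initiator-type loci with 2 distinct sequences and 11 elongator-type loci with 7 distinct sequences. These numbers of distinct sequences equal the 2 and 7 gene lines of the human files, although the files do not state which line holds which sequence. The search pattern was loosened 2 times after a first run had missed initiators, so this match is not an independent check. In the lines below the capitals mark the anticodon and the bases that differ from the first sequence of the same kind, and the CCA end, which is added after transcription, is not part of the gene.
Initiator sequence 1: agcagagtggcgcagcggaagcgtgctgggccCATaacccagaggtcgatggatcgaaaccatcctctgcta
Initiator sequence 2: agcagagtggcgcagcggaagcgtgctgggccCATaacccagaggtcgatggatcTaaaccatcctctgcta
Elongator sequence 1: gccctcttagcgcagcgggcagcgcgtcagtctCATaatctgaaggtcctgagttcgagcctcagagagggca
Elongator sequence 3: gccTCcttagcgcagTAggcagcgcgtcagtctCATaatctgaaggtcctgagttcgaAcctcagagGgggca

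Initiator sequence 1 lay at 8 loci, of which chr1:153671250-153671321 on the plus strand lies in no annotated gene. Initiator sequence 2 lay at 1 locus, chr6:27777885-27777956 on the plus strand, also in no gene, and differs by the single substitution G56T, counted from 1 at the 5′ end. Elongator sequence 1 lay at 3 loci, among them chr6:26735370-26735442 on the minus strand, and elongator sequence 3 at 2 loci, among them chr6:28944575-28944647 on the plus strand; both of these are outside annotated genes. Chromosome 6 held 7 of the 9 initiator-type and 8 of the 11 elongator-type loci. Of the 9 initiator-type loci, 3 lay in introns of lncRNA or unclassified genes and 6 in no gene.

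Sequences that start with A paired with T, and have A as the first base of the T loop, were sorted as initiator-type. All others were sorted as elongator-type, so the first pair of the initiator sequences is set by this rule. The initiator sequences all carry CTGGG as the 5′ arm of the anticodon stem, with C just before the anticodon. The elongator sequences start with G paired with C and carry TCAGT and T at these places. The initiator sequences were 98.61% identical to each other, the elongator sequences 81.08 to 98.63%, and across the kinds identity was 50.67 to 59.21%. Initiator and elongator reads are therefore far apart in sequence, whereas reads of single genes within a kind are not, and how the aligner divided them is uncertain. The mouse sequences were not used here.

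In the assay, periodate oxidizes the last A of uncharged tRNAs, and a later step at high pH removes it. CCA at the end of a read therefore marks a charged molecule and CC an uncharged one. The percentage of charging is CCA reads over CCA plus CC reads. Libraries held 617693 to 6286863 tRNA reads in MEF cells and 253693 to 1992671 in NTERT cells. The initiator was read deeply, with 9908 to 206904 scored ends per MEF library and 2887 to 65378 per NTERT library, and the elongator with 892 to 6810 and 278 to 2027. The 95% Wilson interval for the shallowest value, elongator charging in NTERT NT library 2, ran from 69.8 to 79.9%, and that for the deepest, the initiator in MEF HF library 3, from 67.2 to 67.6%. Such intervals cover counting error only.

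In untreated MEF cells, the charged share of the initiator was 68.7, 60.2 and 80.6% in libraries 1 to 3, with a mean of 69.8% ± 10.3 (SD, n = 3). That of the elongator was 75.7, 61.8 and 84.8% in the same libraries, with a mean of 74.1% ± 11.6 (SD, n = 3). Both tRNAs were lowest in library 2 and highest in library 3, as was the median isoacceptor, at 71.9, 55.7 and 80.7%. With HF, the initiator was at 96.8, 86.6 and 67.4%, a mean of 83.6% ± 14.9 (SD, n = 3). The elongator was at 92.7, 88.7 and 75.8% with HF, a mean of 85.7% ± 8.84 (SD, n = 3). HF libraries 1 and 2 were above every NT library for both tRNAs, whereas HF library 3 lay within the NT range, so the groups overlapped. The median isoacceptor in the HF libraries was at 90.1, 86.9 and 78.9%.

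In untreated NTERT cells, the initiator was charged to 48.0, 37.2 and 61.6%, a mean of 48.9% ± 12.2 (SD, n = 3). The elongator was higher in each of these libraries, at 64.7, 75.2 and 72.1%, a mean of 70.6% ± 5.41 (SD, n = 3). The median isoacceptor was at 48.0, 48.8 and 49.9%, so the elongator lay above it in all 3 and the initiator at, below and above it. After UV-B, the initiator was at 93.3, 45.0 and 33.0%, a mean of 57.1% ± 31.9 (SD, n = 3). The elongator was at 89.9, 71.1 and 59.2% after UV-B, a mean of 73.4% ± 15.5 (SD, n = 3). UV-B library 1 was above every untreated library for both tRNAs and library 3 was below every one, and the median isoacceptor in the UV-B libraries was at 52.8, 45.0 and 45.5%.

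**Figure D1:**
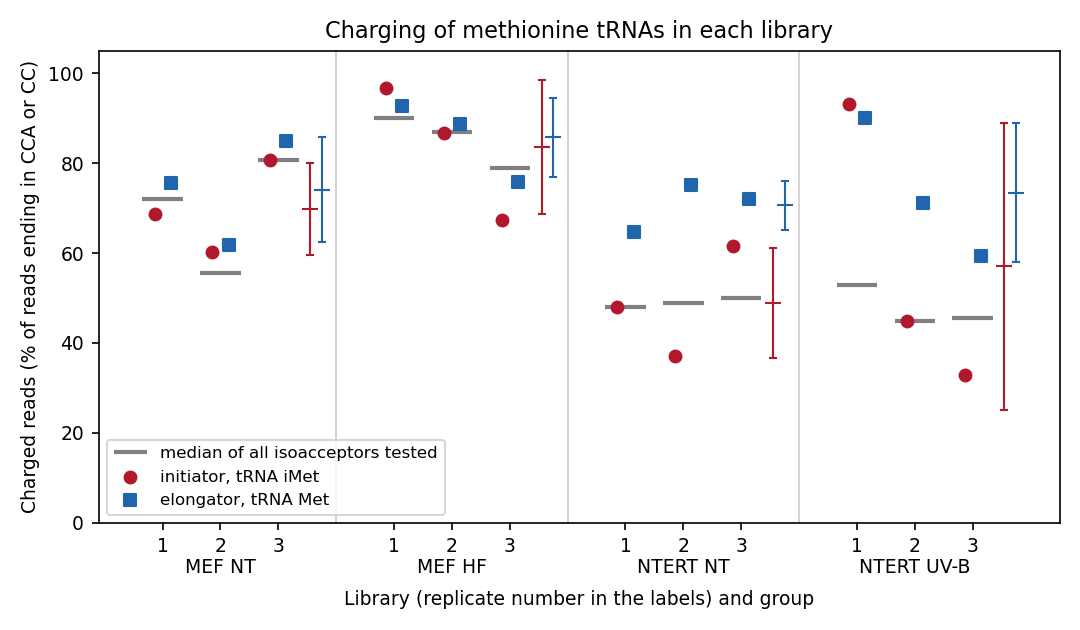
Charging of the initiator (red circles) and elongator (blue squares) methionine tRNAs in the 12 libraries, as the percentage of reads with a scored end that end in CCA; grey bars are the median of all isoacceptors tested in that library, and the crosses with bars at the right of each group are the mean ± SD of 3 libraries. The initiator lies below the elongator in 10 of the 12 libraries, and in library 1 of HF and of UV-B it lies above it, at 96.8 and 93.3%.

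Within a library the initiator was the less charged of the pair in 10 of 12 libraries, in 6 of 6 untreated and in 4 of 6 treated. As log2 of charged over uncharged reads, the initiator minus the elongator was -0.50, -0.093 and -0.43 in MEF NT, which corresponds to -1.55 to -6.98 percentage points of charging. In NTERT NT it was -0.99, -2.35 and -0.69, or -10.5 to -38.0 points. In HF library 1 the sign turned, with a difference of 1.25, and in libraries 2 and 3 it was -0.27 and -0.60. It also turned in UV-B library 1, at 0.64, and was -1.59 and -1.56 in the other two. The turn in UV-B library 1 depended on summing the genes. Between the most-read lines the initiator was lower there, with iMet-CAT-1-1 at 93.4% and Met-CAT-4-1 at 96.2% charged.

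Over the 6 MEF libraries the mean difference was -0.11 (SE 0.28), with p = 0.75 by a two-sided exact sign-flip permutation test, also 0.75 after Benjamini-Hochberg adjustment over the 4 within-library tests. Over the 6 NTERT libraries it was -1.09 (SE 0.42), with an exact permutation p = 0.0625 and an adjusted p = 0.0833, not past the threshold of 0.05. A test of all 12 libraries together, added after the data had been seen, gave a mean of -0.60 (SE 0.28) and an exact permutation p = 0.0571. In NTERT cells the difference did pass when each kind was represented by its gene with the most reads (-1.39, adjusted p = 0.0417 by the exact permutation test), or when the genes had equal weight (-1.23, adjusted p = 0.0417 by the same exact test). With charged reads set against all other reads of the tRNA it was smaller, at -0.30 (adjusted p = 0.25 by the exact permutation test). The difference between untreated NTERT and MEF cells in this quantity was -0.999 (SE 0.53), and the 3 NTERT libraries lay below the 3 MEF libraries. Its exact permutation p was 0.1, the smallest that 3 against 3 libraries allow, and 0.5 after adjustment over the 5 comparisons of its family. This difference was -0.49 without NTERT NT library 2, and -0.30 (exact permutation p = 0.3) with charged reads set against all other reads.

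**Figure D2:**
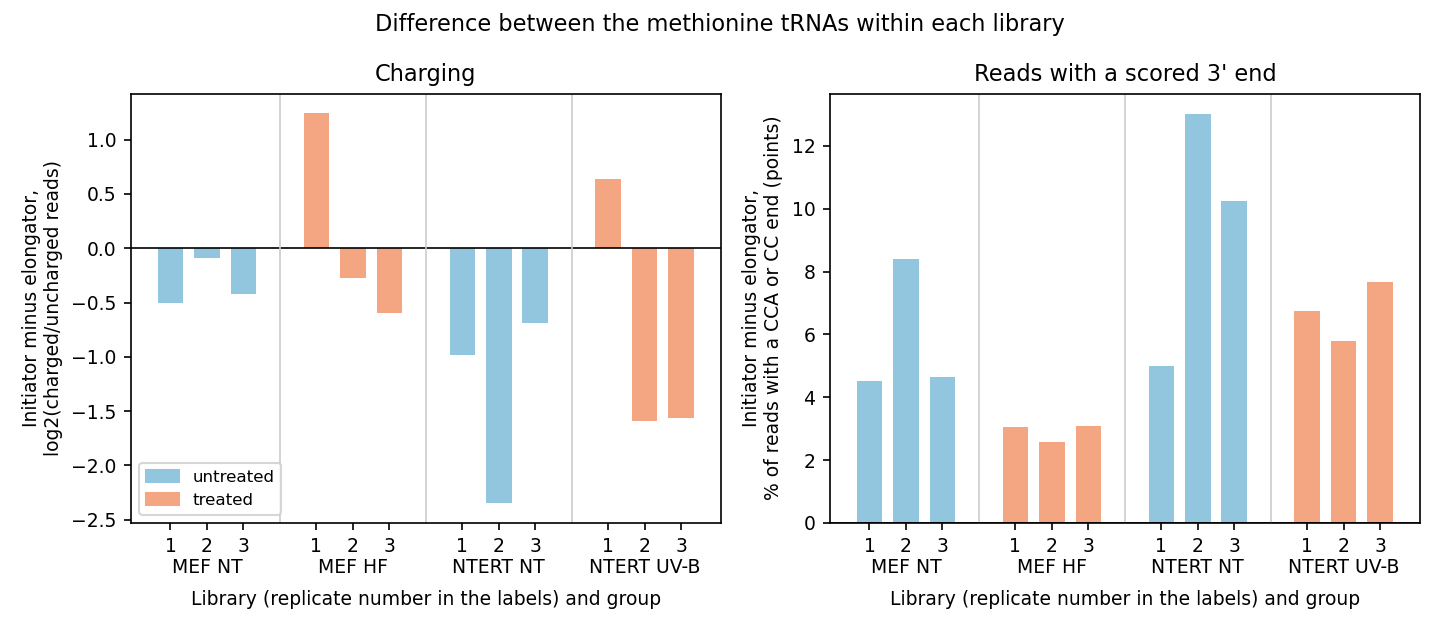
Initiator minus elongator within each of the 12 libraries, on the left for charging as the difference in log2 charged to uncharged reads and on the right for the percentage of reads with a CCA or CC end, in percentage points; blue bars are untreated and orange bars treated libraries. The charging difference is below 0 except in library 1 of HF (1.25) and of UV-B (0.64), and the difference in scored ends is above 0 in all 12, between 2.58 and 13.0 points.

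The effect of HF on charging was then tested with limma on the log2 ratio, across all isoacceptors. The initiator changed by 1.62 (SE 0.73) with HF, with an adjusted p = 0.0983 in limma, and the elongator by 1.16 (SE 0.73), with an adjusted p = 0.168 in limma. So 0 of the 2 methionine tRNAs passed in MEF cells, where 18.8% of the 48 isoacceptors did, and the initiator alone had an unadjusted p under 0.05, as 37.5% of the isoacceptors had. Neither was free of overlap between the groups, which 29.2% were. The difference between the initiator's change and the elongator's was 0.46 (SE 0.58), with an exact permutation p = 0.7.

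The estimate of the HF effect was above 0 for 45 of the 48 isoacceptors, with a median change of 1.21. With each library's median subtracted, the initiator's change was 0.26 and the elongator's -0.20. The share of reads that aligned to a tRNA at all moved with the group as well, at 3.43 to 9.52% in NT and 19.1 to 27.8% in HF, and its part in the difference was not tested. The initiator's call turned on single libraries, with a change of 2.54 and an adjusted p = 0.0084 in limma without HF library 3, 2.02 and 0.0263 without NT library 3, and 0.61 and 0.461 without HF library 1. The SE in the limma fit was the same for all mouse isoacceptors, and the initiator's own spread alone gave an SE of 1.20.

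After UV-B, the initiator's log2 ratio changed by 0.89 (SE 1.14) and the elongator's by 0.39 (SE 0.63), both with an adjusted p = 0.986 in limma. No tRNA passed there: 0.0% of 47 isoacceptors were called by limma, with 0 at an unadjusted p under 0.05, and 4.26% had groups without overlap, neither methionine tRNA among them. Both estimates rested on UV-B library 1. Without it the initiator's change was -0.59 (adjusted p = 0.334 in limma) and the elongator's -0.36 (adjusted p = 0.464). The change of the initiator minus that of the elongator was 0.50 (SE 0.90), with an exact permutation p = 0.7, and was -0.24 without UV-B library 1.

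With the untreated and treated groups of a cell type pooled, the initiator was the isoacceptor whose charging differed most among libraries of a group. This did not hold in untreated MEF cells alone, where it stood at place 32 of 48. Its pooled within-group SD of the log2 ratio was 1.47 in MEF cells, first of 48 isoacceptors with a median of 0.82, and 1.90 in NTERT cells, first of 47 with a median of 0.46. The elongator stood at place 13 in MEF (0.96) and 4 in NTERT cells (0.99). With library medians subtracted the initiator was still at place 2 in MEF (0.95) and 1 in NTERT cells (1.73), whereas the elongator fell to places 35 and 5.

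The spread was largest in the treated groups, where the initiator's SD was 1.94 with HF and 2.59 after UV-B, each at place 1. Set against the mean of the other 2 libraries of its group, with library medians subtracted, HF library 1 stood higher by 2.17 for the initiator, the first of 48 isoacceptors, and by 0.49 for the elongator, at place 13. HF library 3 stood at -1.70 for the initiator, the lowest place of the 48. UV-B library 1 stood higher by 4.01 for the initiator, the first of 47, and by 1.80 for the elongator, at place 5. UV-B library 3 stood at -2.58 for the initiator, the lowest place of the 47. These values are not independent, since a high library lowers those of the other 2. Library 2 was low by this measure as well, at -0.47 with HF (place 46 of 48) and -1.43 after UV-B (place 47 of 47). Over the library median alone, the initiator's log2 ratio was 1.72, -0.037 and -0.85 in HF libraries 1 to 3. In UV-B libraries 1 to 3 it was 3.63, 0 and -0.76. In untreated MEF cells the initiator's SD without subtraction was 0.74, at place 32, whereas in untreated NTERT cells it was 0.72, again at place 1.

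Among single genes, iMet-CAT-1-1 gave 93.6 to 97.9% of the initiator reads in MEF and 95.0 to 98.9% in NTERT libraries, so the initiator values above are in essence those of this line. It was charged to 59.9 to 96.9% in MEF and 33.0 to 93.4% in NTERT libraries. The minor mouse line iMet-CAT-2-1 (488 to 4581 scored ends per library) was charged to 72.6, 66.8 and 82.9% in NT libraries 1 to 3 and 91.4, 87.6 and 77.3% in HF libraries 1 to 3, a narrower range than that of iMet-CAT-1-1. Its charging was above that of iMet-CAT-1-1 in 5 of 6 libraries, the exception being HF library 1. The human iMet-CAT-2-1 had 20 to 351 scored ends and was charged to 29.0 to 55.8% in NT and 32.2 to 77.6% after UV-B. It was also highest in UV-B library 1, at 77.6%, against 93.4% for iMet-CAT-1-1 in that library.

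The elongator reads were divided differently in the 2 cell types. In MEF libraries Met-CAT-1-1 gave 88.1 to 89.3% of them, Met-CAT-5-1 had 0 to 18 reads per library, and Met-CAT-6-1 had 0 in all 6. In NTERT libraries no line dominated: Met-CAT-4-1 gave 20.9 to 44.4% of the reads, Met-CAT-2-1 18.4 to 23.1%, Met-CAT-6-1 12.6 to 18.1% and Met-CAT-1-1 9.36 to 18.2%. Met-CAT-3-1, Met-CAT-5-1 and Met-CAT-7-1 held the rest.

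The 4 deeper human elongator lines were alike in untreated cells, with means of 68.2% ± 3.63 for Met-CAT-1-1, 70.3% ± 2.72 for Met-CAT-2-1, 72.8% ± 10.1 for Met-CAT-4-1 and 68.3% ± 5.45 for Met-CAT-6-1 (SD, n = 3 each). After UV-B all 4 were highest in library 1, at 79.4 to 96.2%, and lowest in library 3, at 53.5 to 65.3%. The order of the UV-B libraries was thus the same in each of these lines. The lines with few scored ends were not in the main test. Met-CAT-3-1, with 10 to 49 per library, ranged from 21.7 to 87.5% charged. Met-CAT-5-1, with 12 to 52, ranged from 67.5 to 100%, and Met-CAT-7-1, with 0 to 8, from 0 to 100%.

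**Figure D3:**
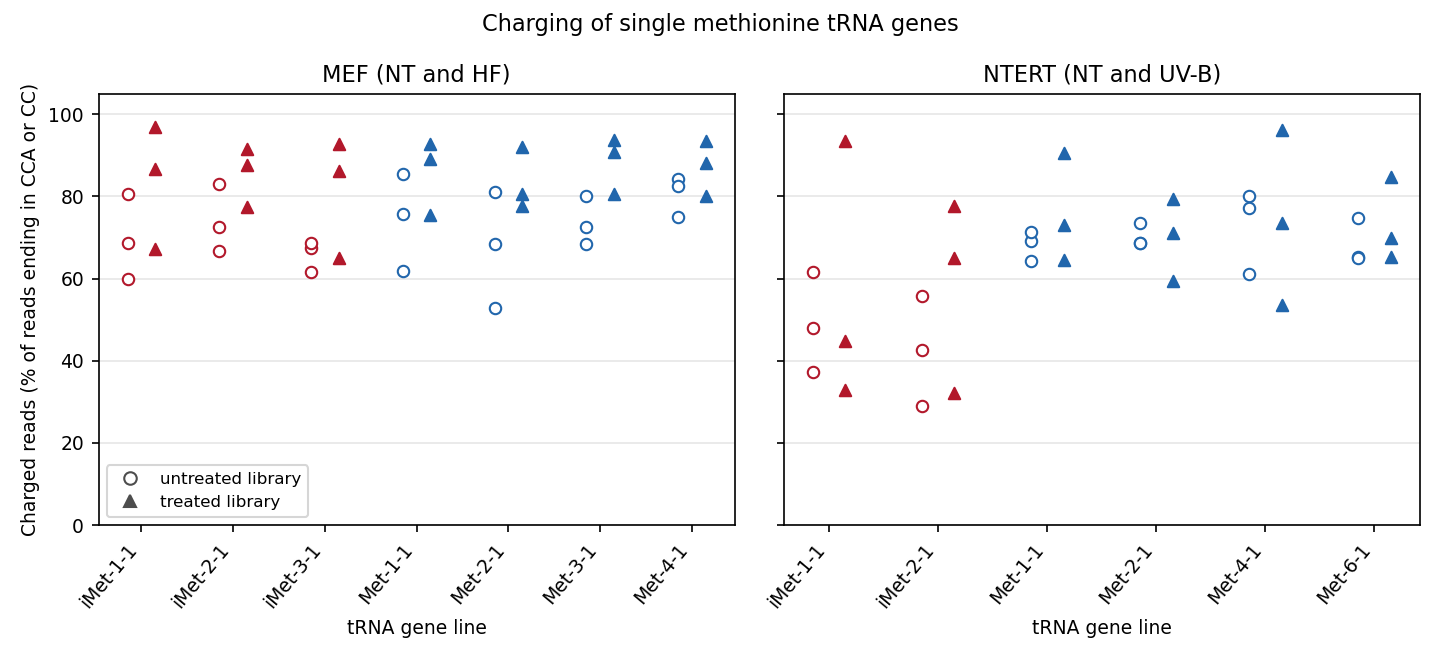
Charging of each methionine tRNA gene line with a mean of at least 50 scored ends per library, in MEF cells on the left and NTERT cells on the right; every point is 1 library, open circles untreated and filled triangles treated, red for initiator and blue for elongator lines. In untreated NTERT libraries the 2 initiator lines lie at 29.0 to 61.6% and the 4 elongator lines at 61.2 to 80.0%, and the highest triangle of each human line is UV-B library 1.

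In the test of all genes, 0 of 7 methionine lines tested passed with HF, where 14.4% of 139 genes did by limma, and 2 of the 7, iMet-CAT-1-1 and Met-CAT-3-1, had an unadjusted p under 0.05, as 37.4% of the genes had. Their adjusted p ran from 0.108 to 0.308, and all 7 estimates were above 0. Only Met-CAT-3-1 had groups without overlap, with 80.0, 68.4 and 72.4% in NT and 90.8, 93.6 and 80.5% in HF libraries 1 to 3, which is 1 of 7 where 30.9% of the genes had this. The gap between its groups was small and rested on 19 to 128 scored ends per library. Without HF library 3, 3 of the 7 passed, and without NT library 3, 2. The share of all genes that passed without these libraries is not given here, so these counts cannot be set against it. After UV-B 0 of 6 lines passed, where 0.0% of 168 genes did by limma, with 0 of the 6 and 3 of the 168 (1.79%) at an unadjusted p under 0.05, and no methionine line was free of overlap, which 7.74% of the genes were.

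The initiator made up far more of the reads than the elongator. Its share of all tRNA reads was 2.34, 1.81 and 1.53% in MEF NT and 4.85, 1.69 and 3.45% in MEF HF. In NTERT cells it was 3.67, 2.54 and 6.25% without and 5.80, 2.37 and 8.02% after UV-B. The elongator took 0.168, 0.180 and 0.102% in MEF NT and 0.186, 0.127 and 0.117% in MEF HF. In NTERT cells it took 0.235, 0.345 and 0.256% without and 0.527, 0.273 and 0.187% after UV-B.

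There were thus 7.37 to 42.9 initiator reads for each elongator read, and the initiator made up 88.0 to 97.7% of the methionine reads. The initiator ranked between 4 and 11 among the 51 mouse or 49 human isoacceptors by reads, and the elongator between 27 and 35. A share of reads is not an amount of tRNA, since ligation and reverse transcription can differ between tRNAs, and fewer cells and less RNA per cell cannot be told apart in such libraries. The largest ratio, 42.9, was in UV-B library 3 and the smallest, 7.37, in NTERT NT library 2.

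**Figure D4:**
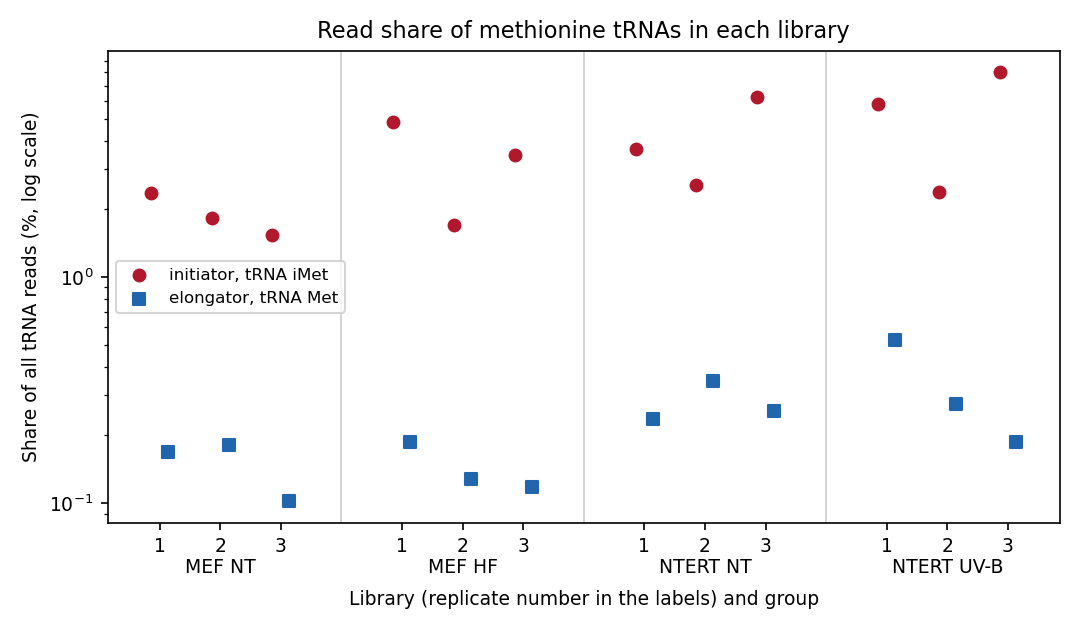
Share of all tRNA reads taken by the initiator (red circles) and the elongator (blue squares) in the 12 libraries, in percent on a log scale. The initiator lies between 1.53 and 8.02% and the elongator between 0.102 and 0.527%, with no overlap between them.

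On the log2 scale after TMM scaling, the initiator's read share changed by 0.86 (SE 0.35) with HF, with an adjusted p = 0.0773 in limma, and the elongator's by 0.10 (SE 0.35), with an adjusted p = 0.871. So 0 of 2 passed where 14.6% of 48 isoacceptors did, and both overlapped between the groups, which 27.1% did not. HF library 2 lay within the NT range for the initiator, and without it the change was 1.24 (adjusted p = 0.00974 in limma), whereas without HF library 1 it was 0.50 (adjusted p = 0.352). The log2 ratio of initiator to elongator reads changed by 0.76 (SE 0.40) with HF, with an exact permutation p = 0.3. After UV-B the initiator's share changed by 0.26 (SE 0.50; adjusted p = 0.825 in limma) and the elongator's by 0.081 (SE 0.39; adjusted p = 0.915), where 0.0% of 48 isoacceptors passed by limma and 4 (8.33%) had an unadjusted p under 0.05. Both overlapped between the groups, which 4.17% did not. The log2 ratio of initiator to elongator reads changed by 0.18 (SE 0.88), with an exact permutation p = 0.9, and by -0.53 without UV-B library 3.

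The percentage of charging rests only on reads that end in CCA or CC, and this part differed between the tRNAs. It was 88.5 to 98.4% for the initiator and 80.1 to 95.3% for the elongator in MEF libraries. In NTERT libraries it was 44.8 to 56.2% for the initiator and 31.8 to 49.5% for the elongator, so that most elongator reads there carried neither end. The initiator had the higher percentage in 12 of 12 libraries. The mean difference was 4.38 points (SE 0.87) in MEF and 8.07 points (SE 1.24) in NTERT cells, each with an exact sign-flip permutation p = 0.031, the smallest 6 libraries allow, and an adjusted p = 0.0625. Over all 12 libraries, a test added after the data had been seen, it was 6.22 points (SE 0.91), with an exact permutation p = 0.000488, which is again the smallest possible.

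This difference depended on the weighting of the genes. With equal weight for each gene it was 0.62 points in MEF (adjusted p = 0.542 by the exact permutation test) and -3.33 points in NTERT cells (adjusted p = 0.375 by the same exact test). With the most-read gene of each kind it was 4.12 points in MEF and 3.40 points in NTERT cells (adjusted p = 0.0625 and 0.0833 by the exact test). Within the initiator, iMet-CAT-2-1 had far fewer scored ends than iMet-CAT-1-1 in 6 of 6 NTERT libraries, at 3.88 to 27.9% against 45.1 to 56.8%. In MEF cells the third initiator line, iMet-CAT-3-1, stood below iMet-CAT-1-1 in 6 of 6 libraries, at 67.2, 72.6 and 76.3% in NT and 87.2, 85.1 and 89.6% in HF. Among the human elongators Met-CAT-3-1 was at 6.99 to 12.5% in NT and 18.2 to 26.7% after UV-B, chosen for mention after its values were seen, below Met-CAT-4-1 in 6 of 6 libraries. Met-CAT-3-1 had only 10 to 49 scored ends per library. For neither iMet-CAT-3-1 nor Met-CAT-3-1 was the distance between untreated and treated groups set against that of all genes. Over all tRNAs, 86.9 to 93.8% of reads had a scored end in MEF NT, 96.0 to 96.6% in HF, 47.2 to 57.8% in NTERT NT and 56.8 to 62.8% after UV-B. This measure thus moved with HF too, and its part in the charging differences was not tested. When charged reads were set against all other reads of the tRNA, the initiator minus elongator difference in MEF cells was 0.18, against -0.11 for scored ends alone.

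**Figure D5:**
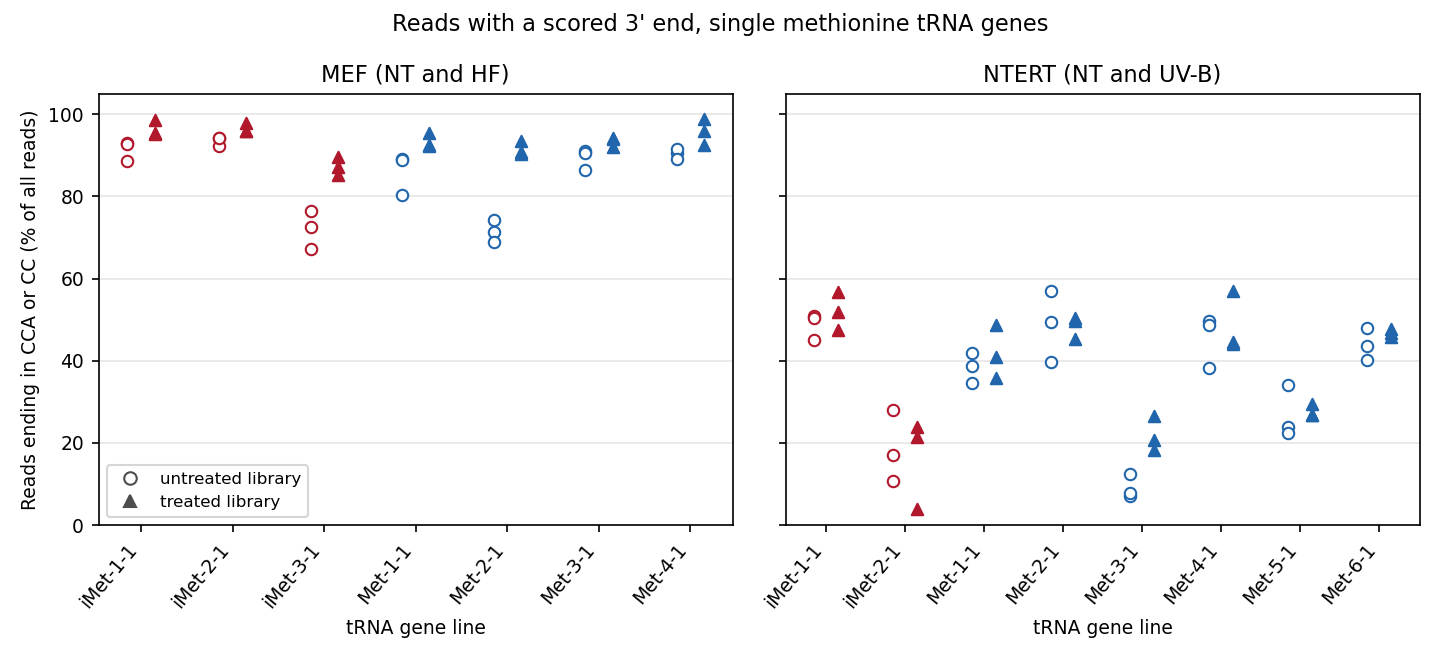
Percentage of all reads that end in CCA or CC for each methionine tRNA gene line with a mean of at least 10 scored ends per library, in MEF cells on the left and NTERT cells on the right; every point is 1 library, open circles untreated and filled triangles treated, red for initiator and blue for elongator lines. In NTERT cells iMet-CAT-2-1 lies at 3.88 to 27.9% and iMet-CAT-1-1 at 45.1 to 56.8%.

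The isoacceptors whose percentage of charging was most like that of each methionine tRNA were found by the root mean square difference over the 6 libraries of a cell type, as a description. In MEF cells, the initiator was nearest to Ala-TGC (3.47 points), then the elongator (5.18) and Phe-GAA (5.45). The elongator was nearest to Gln-TTG (3.10), Arg-ACG (3.34) and Phe-GAA (3.49), with the initiator at place 13. In NTERT cells nothing was close to the initiator by this measure: the nearest were Arg-TCG (14.6 points), Asp-GTC (14.6) and Glu-TTC (15.4), and the elongator stood at place 24, at 23.2 points. The initiator lay furthest from the median isoacceptor in UV-B library 1, at 93.3 against 52.8%. In NT library 1 and UV-B library 2 it was itself the median isoacceptor, at 48.0 and 45.0%. The human elongator was near Val-CAC (3.27), Val-AAC (4.94) and Lys-TTT (5.96), and the initiator was at place 22 from it.

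Methionyl-tRNA synthetase is part of the multi-tRNA synthetase complex, together with the enzymes for Arg, Asp, Gln, Glu, Ile, Leu, Lys and Pro. Of the 24 isoacceptors of these amino acids tested in MEF cells, methionine included, 3 rose and 3 fell in charging with HF by limma, where 12.5 and 6.25% of all 48 isoacceptors did. The 3 that fell were the proline isoacceptors, the target of HF, and no other isoacceptor of the 48 was called lower. The median log2 change of the 24 was 1.21, equal to that of all 48. After UV-B 0 of 24 in NTERT cells passed by limma, with a median of 0.057 against 0.061 for all 47. For read share with HF 1 of 24 rose and 1 fell, where 12.5 and 2.08% of all 48 did, with a median of 0.13 against 0.090, and after UV-B 0 of 25 passed, with a median of 0.038 against -0.058.

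Tryptophan, like methionine, is encoded by a single codon, and its tRNA, Trp-CCA, is charged by an enzyme outside that complex. Trp-CCA was at 74.6, 67.5 and 86.0% in MEF NT and 92.9, 89.8 and 85.2% in HF, with a log2 change of 1.38 (SE 0.73; adjusted p = 0.134 in limma). In NTERT cells it was at 69.0, 60.0 and 67.7% without and 58.3, 63.6 and 62.9% after UV-B, with a change of -0.25 (SE 0.30; adjusted p = 0.986 in limma). UV-B library 1, where both methionine tRNAs were highest, was the lowest of the 3 UV-B libraries for Trp-CCA, which had 96 scored ends there.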

How the data were processed

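tRNA Charge-Seq libraries of 3 samples per group were analysed. Per the study's methods, the authors split reads by a 5-nt barcode, trimmed them with cutadapt, removed reads under 20 nt and aligned them with bowtie2. The human reference was a list of gtRNAdb GRCh38 tRNA genes with duplicates removed and CCA added. The submitters' processing notes also name Trim Galore, GRCm38 and GRCh38, and the mouse tRNA list is not given in the sources used here. The adapters held random bases, but collapsing of duplicates is not stated, so reads may not be independent molecules.

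The deposited files hold whole-number read counts per tRNA gene (other columns: CCA and CC reads), without normalization and without column names. The columns were taken as all, CCA and CC reads. Under this reading the 3 proline isoacceptors, the target of HF, were at 39.0 to 57.6% in MEF NT and 6.46 to 31.0% in HF. Reads on no tRNA gene (72.2 to 98.7% of reads) and 2 yeast lines were left out. For HF, the study's text gives another time than the labels. NTERT replicate numbers follow the labels, whereas the file names number these libraries otherwise, which bears on every NTERT result that uses the number.

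Log2 of charged over uncharged reads, with 0.5 added to each, was tested with limma 3.58.1 in R 4.3.3 for isoacceptors or genes with a mean of at least 50 scored ends, and read share with limma on log2 RPM after TMM scaling (trims 30% and 5%). Benjamini-Hochberg adjustment covered all features tested in a cell type (threshold 0.05). Single values were tested with two-sided exact permutation tests over the 20 labelings of 6 libraries, or sign-flip tests within libraries. No read-count model was run, since the colon-separated files without a header could not be put through the automatic check of units. The limma step was tested on simulated data with independent noise for each isoacceptor. These data held no shift shared by all tRNAs of a library, so the test does not bear on such shifts. Python 3.11.15, numpy 2.4.6, pandas 2.3.3, scipy 1.17.1 and matplotlib 3.10.9 were used.

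Human tRNA sequences were found in hg38 by stem pairing around the anticodon, with GENCODE v44 for annotation. The pattern was loosened 2 times after a first run had missed initiators. Loci on 1 chromosome are not reported here. The members and lists, the rule for the nearest isoacceptors included, were chosen with earlier results of these data known. Alternatives were a pseudocount of 5, minimum means of 10 and 500, percentages, library medians subtracted, a replicate block, charged against all other reads, the test named in the study's methods, equal weight for genes, the most-read gene, library totals without TMM, and leaving out each library. The tests over 12 libraries were chosen after seeing the data.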

Additional observations from a re-analysis of the deposited data

How the results depend on the processing

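Of 235 alternative settings over all results, 206 kept the direction and side of the threshold. Direction turned for the elongator's charging with HF when library medians were subtracted (-0.20, with or without a replicate block), for its read share with HF without TMM (-0.052), for the MEF charging difference with charged against all other reads (0.18), for the effect of UV-B on the charging difference in that setting (-0.017) and on initiator to elongator reads with the most-read gene (-0.28), and for the NTERT difference in scored ends with equal weight for genes (-3.33). The cause was not tested. The NTERT charging difference passed with the most-read gene (-1.39) and equal weights (-1.23), each at the smallest p that 6 libraries allow. The difference in scored ends passed with 12 libraries (6.22 points, exact permutation adjusted p = 0.00195). Charged against all other reads gave 1 called methionine gene line with HF, and the share of all genes called in that setting is not given here.

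Leaving out 1 library at a time, changes with HF ran from 0.61 to 2.54 for initiator and 0.70 to 1.71 for elongator charging, 0.50 to 1.24 and -0.12 to 0.29 for their read shares, -0.098 to 0.83 for the charging difference, 0.54 to 1.11 for initiator to elongator reads and 0 to 3 genes called. With UV-B the ranges were -0.59 to 1.81 and -0.36 to 0.95 for charging, -0.21 to 0.81 and -0.26 to 0.32 for read shares, -0.24 to 0.88 for the charging difference and -0.53 to 0.62 for initiator to elongator reads, with 0 genes called. The charging difference ran from -0.38 to -0.010 in MEF and -1.43 to -0.84 in NTERT cells, that in scored ends from 3.58 to 4.74 and 7.08 to 8.69, and the difference between untreated cell types from -1.33 to -0.49. With 5 libraries the sign-flip test cannot pass. The genes called are methionine gene lines, and the share of all genes called with a library left out is not given here.

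Same-numbered libraries did not all deviate together. Correlations of charging were -0.11 to -0.033 in MEF and -0.49 to 0.024 in NTERT cells, and those of read share -0.34 to 0.16 in MEF cells and, for numbers 1, 2 and 3, -0.31, 0.59 and 0.53 in NTERT cells. With the replicate block the SE of the initiator's read share change after UV-B was 0.25 instead of 0.50 (adjusted p = 0.517 in limma). The changes of the initiator and elongator in charging under the block stayed 1.62 and 1.16 with HF and 0.89 and 0.39 with UV-B, none past the threshold. The count models listed as alternatives were not run. With 3 libraries a group, and 278 elongator ends in the shallowest, changes smaller than the spread between libraries could not be detected.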
